A study of Mus musculus with 20 samples.

Results

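Tumors with the highest median relative expression of genes on mouse chromosome 2 (Chr2) were set against the rest of the series. The measure, called Chr2 dosage here, is the median over Chr2 genes of log2(CPM + 1), after each gene's median over the 20 tumors was subtracted, minus the same median over Chr1 to Chr19. CPM is a gene's count scaled to a fixed total count per tumor, and 11976 genes with a mean of at least 5 CPM were used, 974 of them on Chr2. The 4 tumors with the highest values, of 20 in all, were selected on this measure. Their Chr2 expression is therefore given as a description without a test, and test results are given only for the other chromosomes.

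Every tumor came from a different female [BALB/c-neuT x FVB/J] F1 mouse that carried the neuT transgene, an activated rat Her2/neu oncogene that drives spontaneous breast cancer. There was no untreated or transgene-negative group, and mice bore several tumors, of which 1 was taken once any of them reached the size limit. Small frozen pieces gave the RNA, so that each library mixes tumor cells with other cells of the gland. Each name also holds Lo or Hi, a label that the sources used here do not explain, and tumors are called here by the number that opens the sample name.

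A chromosome that is gained or lost changes the template number of all its genes together, and transcript levels of most genes follow template number in part. Breast cancers often gain or lose whole chromosomes or long arms. The distal part of mouse Chr2 holds the orthologs of human chromosome arm 20q, a region that is often gained in human breast cancer and carries AURKA, E2F1, MYBL2 and ZNF217. Dosage as measured here is a level of RNA. DNA copy number was not analysed here, and in a bulk sample a change in a few cells cannot be told apart from a smaller change in all cells.

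Chr2 dosage was 0.216 on the log2 scale in tumor 4, 0.211 in tumor 1, 0.139 in tumor 17 and 0.122 in tumor 13. These correspond to 1.16-fold, 1.16-fold, 1.10-fold and 1.09-fold of the median over all autosomal genes, Chr2 included. In the other 16 tumors it ran from -0.0460 in tumor 16 to 0.0475 in tumor 5, with tumor 14 next below tumor 5 at 0.0166. The gap between the lowest of the 4 and the highest of the 16 was 0.0743. The means were 0.172 and -0.0233, a difference of 0.195, which ran from 0.180 to 0.212 when each of the 4 tumors was left out in turn. For scale, 3 templates in place of 2 in every cell, with expression in proportion, would give 0.585. Genes with a mean of 1 to 5 CPM, 278 on Chr2, were not used to select the tumors. Over these genes the same 4 tumors were again the highest, with a difference of 0.0960 on a scale where the pseudocount shrinks low genes, but tumor 13 (0.0298) was barely above the highest of the other 16 (0.0285).

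**Figure D1:**
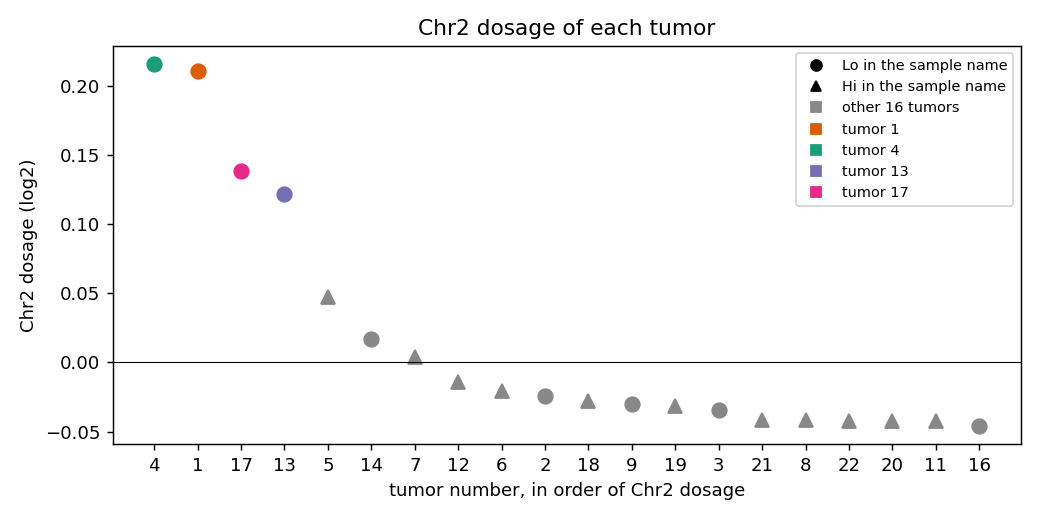
Chr2 dosage (log2, vertical axis) of each of the 20 tumors in descending order, with colored symbols for the 4 selected tumors, circles for Lo and triangles for Hi in the sample name. The 4 selected tumors lie at 0.122 to 0.216, and the highest of the other 16 lies at 0.0475.

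Depth overlapped between the groups. Total counts ran from 38765682 to 57071545 in the 4 tumors and from 41064562 to 65465755 in the other 16 (two-sided exact permutation test, p = 0.249, adjusted p = 0.498 over 4 measures). The number of genes with a count (adjusted p = 0.762) and the share of counts on the ribosomal RNA locus of Yam1 and AY036118 (6.29% to 21.6% against 10.1% to 27.7%, adjusted p = 0.762, same exact test) did not pass the threshold either. The label in the sample names went with the selection, though not past the threshold after adjustment. All 4 tumors carried Lo in their names, against 5 of the other 16 (Fisher's exact test, two-sided, p = 0.0260, adjusted p = 0.104). Results on other chromosomes are therefore also given with the label in the fit.

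Along the chromosome the 4 tumors had different profiles. Tumor 1 was raised along all of Chr2: in the 17 windows of 10 Mb with at least 20 genes, its median relative expression ran from 0.170 to 0.271, above all of the other 16 tumors in 17 of 17 windows. Tumor 17 was also level, from 0.0513 to 0.187, and stood above the other 16 tumors in 13 windows. Tumor 13 ran from 0.0271 to 0.229 and stood above them in 9 windows. Tumor 4 was not level. Its windows before 60 Mb lay between -0.144 and 0.0591, while those from 60 Mb to the end lay between 0.138 and 0.458, and the last of them, from 180 Mb, held the highest value of any tumor.

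The step in tumor 4 was summarized with a boundary at 60 Mb that was placed after the profile was seen. Median relative expression in tumor 4 was 0.0226 over the 316 genes before 60 Mb and 0.311 over the 658 genes beyond it. In tumor 1 these values were 0.218 and 0.205, in tumor 17 they were 0.147 and 0.132, and in tumor 13 they were 0.156 and 0.113. The tumors just below the selected ones had steps of the same direction as tumor 4. Tumor 5 had -0.0793 before and 0.0973 beyond 60 Mb, and tumor 14 had -0.0901 and 0.0544. Over the 16 tumors the value beyond 60 Mb minus that before it ran from -0.0599 to 0.177. When a trend on GC content and coding length was removed from every tumor, the step in tumor 4 was 0.302 and that in tumor 5 was 0.169, against 0.289 and 0.177 as measured.

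**Figure D2:**
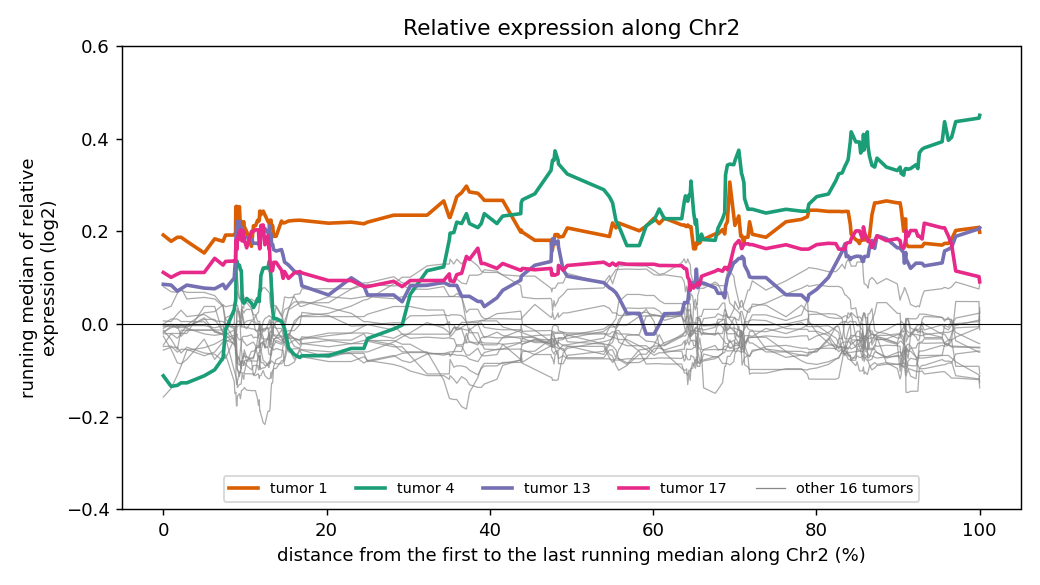
Running median (61 genes) of relative expression (log2, vertical axis) along Chr2, drawn by the share of the distance from the first to the last median (horizontal axis, %), for the 4 selected tumors (colored lines) and the other 16 (grey lines). Tumor 1 stays near 0.2 throughout, tumors 13 and 17 lie mostly near 0.1, and tumor 4 starts near or below 0 and ends at its highest level.

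The shift was shared by most genes of the chromosome. Each gene was taken relative to its own median over the 20 tumors and to the tumor's median over Chr1 to Chr19. On this scale 85.9% of the 974 genes lay above 0 in tumor 1, 75.1% in tumor 4, 74.7% in tumor 13 and 79.7% in tumor 17. In the other 16 tumors the share ran from 35.1% to 59.9%. In the edgeR fit of the 4 tumors against the 16, 1654 Chr2 genes and 18337 genes of other chromosomes passed the filter on low counts. Their log2 fold changes (high Chr2 dosage over rest) had a median of 0.21 (quartiles 0.04 and 0.32) on Chr2 and of -0.02 (quartiles -0.15 and 0.09) elsewhere. On Chr2 79.5% of the genes were above 0, against 44.2% elsewhere. Chr2 genes with a mean log2 CPM of 4 to 6 were above 0 in 92.0% of cases (460 genes, median 0.23), and those between 0 and 2 in 64.0% (242 genes, median 0.13). All 4 tumors were above every other tumor for 50 of the 1654 Chr2 genes (3.02%), against 0.32% of all genes tested, and they were below every other tumor for 0 Chr2 genes, against 0.085% of all genes. These counts use the contrast that selected the tumors and are given without a reading.

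**Figure D3:**
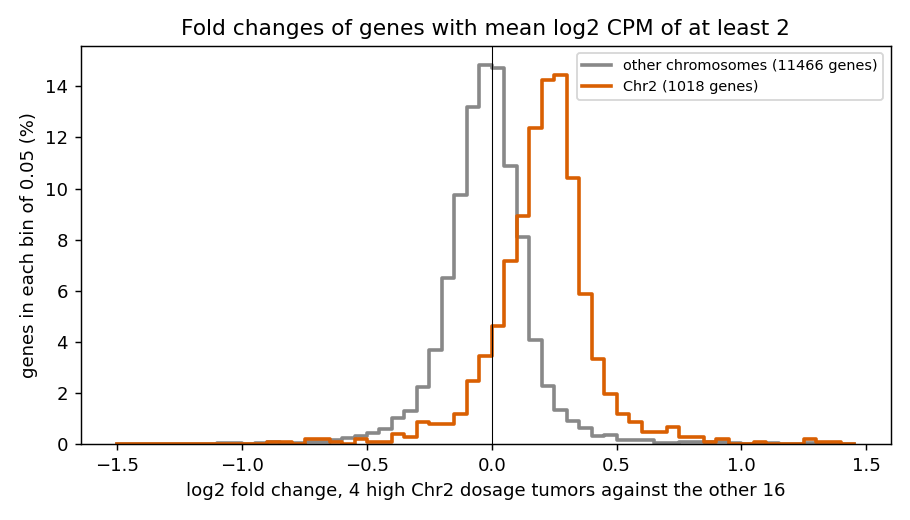
Share of genes (%, vertical axis) by log2 fold change of the 4 selected tumors against the other 16 (horizontal axis), for Chr2 and for all other chromosomes, for genes whose mean log2 CPM reached 2. The Chr2 curve is shifted to the right as a whole, and a few genes beyond the drawn range are left out.

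Of the 50 genes that did not overlap, 42 started beyond 60 Mb (84.0%, against 69.3% of all Chr2 genes tested), and their log2 fold changes had a median of 0.34. These genes were named after their values were seen. Rnf114, a ubiquitin ligase, had 119.0, 120.2, 121.1 and 121.2 CPM in tumors 1, 4, 13 and 17, and 70.6 to 107.9 CPM (median 84.6) in the other 16. Src, the kinase that gave its name to a family of signaling enzymes, had 160.2, 177.5, 146.3 and 174.2 CPM, against 104.5 to 144.1 CPM (median 128.7). Mavs, the adaptor that passes signals from RNA sensors to the interferon genes, had 52.4, 56.8, 51.9 and 57.4 CPM, against 40.0 to 47.8 CPM (median 44.1). The 4 tumors lay close together for Rnf114 (SD 1.01 CPM, against 10.05 CPM in the others), but not for Src (14.3 against 10.4 CPM) or Mavs (2.87 against 1.98 CPM).

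All 40 listed orthologs of human 20q passed the filter. Of these, 34 had a log2 fold change above 0, the median was 0.28, and 3 of the 40 (Src, the cleavage factor subunit Cstf1 and the splicing factor Prpf6) did not overlap, against 3.02% of all Chr2 genes tested. Zfp217, the ortholog of ZNF217, had 45.1, 47.3, 42.4 and 52.1 CPM, against 32.8 to 45.5 CPM (median 38.2), a log2 fold change of 0.27 (standard error 0.0746). The members with the largest fold changes were genes at low levels. The log2 fold change of Bcas1 was -1.47 (standard error 1.16) and that of Eef1a2, a translation factor of muscle and nerve, was -1.17 (standard error 1.496). Both had their highest value in a single one of the other tumors, with 8.02 CPM in tumor 11 and 8.73 CPM in tumor 8, where the median of the 16 was 0.258 and 0.0561 CPM. Ptk6, a nonreceptor tyrosine kinase, had 0.89 (standard error 0.535) at under 1 CPM. The next 3 were regulators of the genome and the cell cycle. Dnmt3b, a DNA methyltransferase, had 7.71, 7.30, 6.03 and 5.81 CPM, against 3.42 to 6.93 CPM (log2 fold change 0.54, standard error 0.124). E2f1, a transcription factor that opens S phase, had 20.9, 21.5, 15.7 and 16.7 CPM, against 8.94 to 18.6 CPM (0.50, standard error 0.140).

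The 24 listed cell cycle genes of Chr2 were all above 0, with a median log2 fold change of 0.36 and a range from 0.02 to 0.52. None of them separated the 4 tumors from all others, which 3.02% of all Chr2 genes tested did. Mybl2, a partner of the MuvB complex at mitotic genes, had the largest value, 0.52 (standard error 0.146), with 20.5, 21.2, 13.7 and 15.1 CPM, against 9.34 to 19.6 CPM. Cdc25b, a phosphatase that starts mitosis, had 0.45 (standard error 0.140), and Aurka, the spindle kinase Aurora A, had 0.44 (standard error 0.136). The replication factor Gins1 had 0.42 (standard error 0.162) and Tpx2, which activates Aurora A, had 0.41 (standard error 0.158). Tumor 13 was the lowest of the 4 for Mybl2, Cdc25b, Aurka and Tpx2. For comparison, 24 listed proliferation genes of other chromosomes, such as Mki67 and Top2a, had a median of 0.11, with 20 above 0 and 0 past the threshold. Of all genes tested on other chromosomes 44.2% were above 0, 0.409% were called higher and 0.147% lower, so that 0 calls is near that share.

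Of 26 listed Chr2 signaling genes and suppressors 24 passed the filter, 20 were above 0 and the median was 0.18. Cd82, a tetraspanin that restrains metastasis, had 160.3, 192.7, 143.5 and 203.7 CPM, against 116.4 to 152.7 CPM (log2 fold change 0.42, standard error 0.0796), and only tumor 13 fell inside the range of the others. Traf2, an adaptor of TNF receptors, had 0.28 (standard error 0.0687), Nfe2l2, the oxidative stress factor NRF2, had 0.27 (standard error 0.0897), and Traf6, an adaptor of Toll-like receptors, had 0.25 (standard error 0.0724). The vascular protein Egfl7 had 0.27 (standard error 0.188). Mdk, the growth factor midkine, spread widely among the 4 tumors, from 1.17 CPM in tumor 1 to 8.83 CPM in tumor 17 (0.32, standard error 0.322). The 16 listed secreted and immune genes of Chr2 were divided, with 8 above 0, 8 below 0 and a median of 0.09. Among them Ptges, which makes prostaglandin E, had 0.47 (standard error 0.175), the protease inhibitor Slpi 0.31 (standard error 0.243), the proteoglycan Sdc4 0.26 (standard error 0.0961) and cystatin C (Cst3) 0.25 (standard error 0.0865). Thrombospondin 1 (Thbs1) had -0.25 (standard error 0.134).

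Subunits of the proteasome, the protein-degrading complex, could be set side by side by chromosome. The 4 listed subunits on Chr2 were Psma7 (log2 fold change 0.45), Psmc3 (0.34), Psmd14 (0.30) and Psmb7 (0.28), with a median of 0.32. For Psmc3 and Psmd14 the 4 tumors were above all others, as for 3.02% of all Chr2 genes tested. Chr2 selected the tumors, so these values are a description. The 27 listed subunits on other chromosomes ran from -0.04 to 0.22, with a median of 0.06, 22 above 0 and 0 past the threshold. Among all genes of other chromosomes 44.2% were above 0, and only 0.409% were called higher and 0.147% lower. The Chr2 subunits include the enzyme Psmd14, which removes ubiquitin at the lid, and the ATPase Psmc3 of the base.

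The 10 Chr2 genes with the largest log2 fold changes, among those whose mean log2 CPM reached 3, included several that are known to be induced by interferon. The 10 were Ube2l6 (1.34), Zbp1 (1.29), Tox2 (1.07), Helz2 (0.92), RP23-131N18.1 (0.91), Duox1 (0.83), B2m (0.81), Ifih1 (0.81), Ogfr (0.79) and Fnbp4 (0.79). Ube2l6, the enzyme that conjugates ISG15, had 41.3, 18.7, 33.4 and 11.6 CPM in tumors 1, 4, 13 and 17, and 6.26 to 27.7 CPM (median 9.49) in the other 16. Zbp1, a sensor of Z-form nucleic acid, had 65.9, 30.7, 57.0 and 16.8 CPM, against 5.57 to 40.4 CPM (median 15.3). Ifih1, the RNA sensor MDA5, had 78.5, 33.4, 63.6 and 29.6 CPM, against 15.1 to 59.6 CPM (median 27.0). B2m, the light chain of MHC class I, had 1171, 492.4, 1121 and 384.1 CPM, against 220.0 to 977.6 CPM (median 445.0). In all of these tumors 1 and 13 were the highest, tumor 17 was the lowest of the 4, and tumor 14 was the highest of the 16.

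Ogfr and Helz2 had tumors 1 and 13 highest and tumor 17 lowest of the 4 as well, while the remaining genes followed other orders. Duox1, an oxidase that makes hydrogen peroxide, had 169.5, 99.6, 250.9 and 121.5 CPM, against 68.3 to 115.6 CPM. Ogfr, the opioid growth factor receptor, had 130.5, 115.7, 116.9 and 86.9 CPM, and 1 of the 16 other tumors exceeded the lowest of them. The helicase Helz2 had 92.5, 78.2, 99.6 and 46.2 CPM, against 23.6 to 63.1 CPM. Tox2, a transcription factor of the HMG-box family, had 27.1, 27.2, 17.4 and 13.7 CPM, against 4.33 to 21.96 CPM. For Fnbp4 tumor 13 stood alone with 192.4 CPM, next to 70.6, 98.9 and 55.8 CPM in tumors 1, 4 and 17.

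The 5 Chr2 genes with the most negative log2 fold changes at that level were Ttn (-0.88), Adamtsl2 (-0.74), Itih2 (-0.72), Muc15 (-0.70) and Itih5 (-0.61), with standard errors of 0.351 to 1.36. Ttn, the muscle protein titin, was 33.5, 1.398, 0.756 and 10.8 CPM in tumors 1, 4, 13 and 17, and its fold change was set by tumor 8 of the other 16, with 146.3 CPM against a median of 1.42 CPM. Muc15, a membrane mucin, was 55.3, 48.4, 188.5 and 79.0 CPM, against 49.9 to 263.0 CPM, so that tumor 13 was above the median of the others (143.6 CPM). The heavy chain Itih2 ran from 13.5 to 30.6 CPM in the 4 tumors and from 10.7 to 72.7 CPM in the others. The ranges overlapped for all 5 genes.

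On the other chromosomes, 102 genes passed an adjusted p of 0.05 in edgeR's quasi-likelihood test with Benjamini-Hochberg adjustment over 19991 genes. The 19991 genes include 1654 on Chr2, the chromosome that selected the tumors, and 133 of these were past the threshold. Their small p-values ease the threshold for the other genes, and an adjustment without Chr2 genes was not run. Of the 102 genes, 75 were higher in the 4 tumors (0.409% of the 18337 genes) and 27 were lower (0.147%). The number of calls moved with single tumors and with the label. With Lo or Hi as a term in the fit 0 genes passed, while 1449 had an unadjusted p under 0.05, against 1722 without the term. Among Lo tumors alone (4 against 5) 1 gene passed, Ldhd, an enzyme that oxidizes D-lactate. Its expression was 274.1, 254.6, 259.2 and 292.4 CPM in tumors 1, 4, 13 and 17, and 122.7 to 246.4 CPM (median 160.1) in the other 16 (log2 fold change 0.71, adjusted p = 0.00860 over all tumors, same test). Without tumor 1 there were 22 genes, without tumor 4 there were 38, and without tumor 13 there were 72, of which 39 were higher. In all of the settings with a value, these included, the 102 genes kept the direction of their fold change.

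Interferon-stimulated genes were among the genes that rose. Interferons are secreted when cells sense foreign or misplaced nucleic acid; they act through receptors on the same and neighboring cells, and the genes they induce degrade RNA, block viruses and load MHC class I. All 15 listed genes of this kind, none of them on Chr2, had a log2 fold change above 0, with a median of 1.52, and 10 of the 15 passed the threshold, against 0.409% of genes on other chromosomes. Among all genes of other chromosomes the median was -0.02. The level was not shared evenly by the 4 tumors. The median over the 15 genes, relative to each gene's median over the 20 tumors, was 2.09 in tumor 1, 1.86 in tumor 13, 1.02 in tumor 4 and 0.12 in tumor 17 (log2). In the other 16 it ran from -1.13 in tumor 18 to 1.34 in tumor 14, with tumor 5 at 0.76. Tumor 17 thus lay within the range of the other tumors, and tumors 14 and 5, next below the 4 in Chr2 dosage, were the highest of the 16. Without tumor 1, 0 of the 15 passed (smallest adjusted p = 0.0552 in the edgeR test, median 1.28), and with the label as a term 0 passed (smallest adjusted p = 0.171, median 1.23, with 14 of 15 at an unadjusted p under 0.05). Without tumor 13, 3 of the 15 passed, and without tumor 4, 4 did. Without tumor 17, 14 of the 15 passed, and without tumor 14 all 15 did. Leaving out any other of the 16 gave 6 to 11. With the 3 tumors highest in Chr2 dosage against the rest, and among Lo tumors alone, 0 passed.

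**Figure D4:**
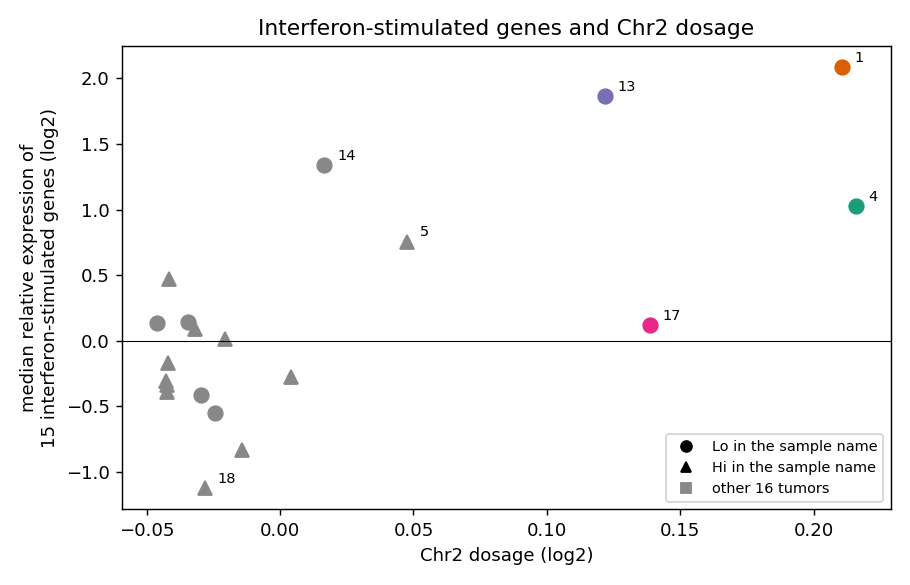
Median relative expression of 15 interferon-stimulated genes (log2, vertical axis) against Chr2 dosage (log2, horizontal axis) in each of the 20 tumors, with colored points for the 4 selected tumors, circles for Lo and triangles for Hi. Tumors 1 and 13 lie highest (2.09 and 1.86), tumor 17 lies at 0.12, and tumors 14 and 5 lie above the rest of the other 16.

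Among called genes of any level the largest log2 fold change was that of Tex11 (5.31, adjusted p = 0.004835 in the edgeR test), a gene at 0, 2.19, 0.756 and 4.33 CPM in tumors 1, 4, 13 and 17 and at most 0.231 CPM in the others, named after its values were seen. The 10 largest rises, among the called genes whose mean log2 CPM reached 1, were Apol9b, Usp18, Oas3, Apol9a, Mx1, I830012O16Rik, Oas2, Rsad2, Oasl2 and Ifi27l2a, with log2 fold changes from 1.93 down to 1.62. For all 10, tumors 1 and 13 were above each of the other 16 tumors, and for 9 of the 10 tumor 14 was the highest of the 16. Tumor 4 was above all of the 16 for 2 of these genes and tumor 17 for 0.

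Usp18, which removes ISG15 from proteins and dampens the interferon receptor, had 64.9, 22.5, 44.5 and 11.4 CPM in tumors 1, 4, 13 and 17, and 2.89 to 32.2 CPM (median 6.95) in the other 16. Its log2 fold change was 1.91 (standard error 0.433, adjusted p = 0.0291). Mx1, a GTPase of the antiviral Mx family, had 23.9, 15.9, 20.5 and 5.37 CPM, against 1.87 to 10.9 CPM (log2 fold change 1.75, standard error 0.313, adjusted p = 0.0108). The ranges overlapped for both genes, through tumors 4 and 17 for Usp18 and through tumor 17 for Mx1.

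The 2'-5' oligoadenylate synthetases Oas3 and Oas2, which switch on RNase L when they bind double-stranded RNA, lie next to each other on Chr5. Oas3 had 16.7, 8.81, 16.7 and 2.98 CPM, against 0.83 to 9.45 CPM, and Oas2 had 38.3, 25.7, 47.2 and 5.94 CPM, against 3.49 to 19.8 CPM. Their log2 fold changes were 1.90 (standard error 0.387, adjusted p = 0.0190) and 1.67 (standard error 0.370, adjusted p = 0.0262), and that of the related Oasl2 was 1.65 (standard error 0.355, adjusted p = 0.0245). Rsad2, the enzyme viperin, had 23.3, 15.3, 22.9 and 9.40 CPM, against 2.31 to 20.6 CPM (log2 fold change 1.65, standard error 0.408, adjusted p = 0.0475). Ifi27l2a, a small interferon-induced membrane protein, had 136.2, 24.8, 89.8 and 21.1 CPM, against 8.43 to 67.7 CPM.

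Apol9a and Apol9b, apolipoprotein L genes of Chr15, are near-identical copies whose reads cannot be told apart with certainty. Apol9b had 37.4, 17.8, 30.7 and 8.11 CPM, against 2.14 to 18.5 CPM, and Apol9a 40.4, 20.01, 33.6 and 10.3 CPM, against 2.60 to 23.1 CPM. I830012O16Rik, an Ifit family gene of Chr19, had 30.0, 12.6, 25.7 and 6.17 CPM, against 1.41 to 20.4 CPM, and it may share reads with its neighbors too. Over leaving out each of the 20 tumors in turn, the highest adjusted p of these 10 genes ran from 0.0594 (Mx1) to 0.340 (Ifi27l2a).

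Further called genes of the pathway, chosen after their values were seen, included transcription factors. Stat2 had 56.6, 49.8, 66.4 and 23.8 CPM in tumors 1, 4, 13 and 17, against 15.3 to 38.6 CPM (log2 fold change 0.91, adjusted p = 0.0216). Irf9 had 102.4, 95.6, 104.6 and 57.1 CPM, against 40.4 to 74.9 CPM (0.63, adjusted p = 0.0142), and tumor 17 lay within the range of the others for both genes. Tap1, which carries peptides to MHC class I and works with the Chr2 product B2m, had 92.1, 82.4, 101.4 and 44.8 CPM, against 24.8 to 75.7 CPM (0.91, adjusted p = 0.0253). Cd274, the checkpoint ligand PD-L1, had 4.04, 3.42, 5.89 and 2.35 CPM, against 1.18 to 3.08 CPM (0.91, adjusted p = 0.0272). The chemokine Cxcl10 was the only one of the 15 listed genes for which the 4 tumors were above every other tumor. It was at 2.28, 1.59, 2.23 and 1.16 CPM against 0.246 to 1.11 CPM. Over all genes tested on other chromosomes, 14 of 18337 (0.0763%) were above every other tumor in the 4.

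Promoter sequence was read for these genes from RefSeq (build GRCm38.p6), since many interferon-stimulated genes carry an interferon-stimulated response element. The letters GAAANNGAAA, or their complement on the other strand, were searched for in the 250 bases before the start of each gene. They were found for 8 of the 11 listed interferon-stimulated genes with a promoter in the table (72.7%), for 10 of 48 genes that were called higher on other chromosomes (20.8%) and for 0 of 22 that were called lower. The first of these sets overlaps the second, as 10 of the 15 listed genes were called higher. The share was 3.46% of all 27025 genes with a promoter, 3.19% of the 12150 tested genes with a promoter and 3.42% of the Chr2 genes tested. Of the 10 Chr2 genes with the largest fold changes, 8 had a promoter in the table and 1, B2m, held these letters. The stretches around the match are shown for B2m and for 3 of the 10 largest rises, with 1 match in capitals, on the strand of the gene.
B2m (chr2:122147523-122147582, plus strand): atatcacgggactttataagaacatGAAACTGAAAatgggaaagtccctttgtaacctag
Oas3 (chr5:120777700-120777759, minus strand): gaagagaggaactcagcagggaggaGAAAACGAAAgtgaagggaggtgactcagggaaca
Rsad2 (chr12:26456538-26456597, minus strand): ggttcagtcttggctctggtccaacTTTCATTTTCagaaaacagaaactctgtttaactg
Apol9b (chr15:77729010-77729069, plus strand): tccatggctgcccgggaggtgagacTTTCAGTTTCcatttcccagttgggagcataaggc

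In Rsad2 and Apol9b the match reads on the other strand, Apol9b holds 2 matches that overlap, of which the first is in capitals, and the stretch of Apol9a is letter for letter that of Apol9b. The match in capitals begins 139 bases before the start in B2m, 75 in Oas3, 120 in Rsad2 and 37 in Apol9b. A match describes the letters and is not a measure of binding.

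The 27 genes that fell had smaller changes that the 4 tumors shared more evenly. For all 27 genes each of the 4 tumors lay below the median of the other 16. For 10 of them all 4 lay below every other tumor (17 of the 18337 genes on other chromosomes did). Of the 75 genes that rose, 9 had all 4 tumors above every other tumor (14 of the 18337, or 0.0763%, did). These counts and the evenness of the falls come from the contrast that called the genes, so they are not a separate result. The 10 largest falls, by the same limit on the level, were Igdcc4, Steap2, Bche, Dync2h1, Sspn, Abcg2, Itgb8, Gm4076, Cage1 and Enpp1, with log2 fold changes from -0.85 to -0.51. Tumors overlapped with the others for 5 of these 10. For 8 of the 10, all but Dync2h1 and Cage1, the call was lost in 1 or more of the fits that left out 1 tumor. The highest adjusted p of these 8 ran from 0.0760 (Enpp1) to 0.211 (Sspn) in the edgeR test. Over all alternatives the calls lost most often were Abcg2 (kept in 12, lost in 19) and Sspn (kept in 15, lost in 16).

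Dync2h1, the motor of retrograde transport in cilia, had 21.5, 17.3, 18.5 and 18.2 CPM in tumors 1, 4, 13 and 17, and 22.8 to 37.2 CPM (median 29.1) in the other 16. Its log2 fold change was -0.63 (standard error 0.101, adjusted p = 0.00503), and the adjusted p stayed at or under 0.0256 when any 1 of the 20 tumors was left out. It was 0.0870 with the label in the fit. Cage1, a gene mainly of the testis, had 3.04, 2.81, 2.47 and 2.60 CPM, against 3.39 to 4.60 CPM (log2 fold change -0.55, standard error 0.101, adjusted p = 0.0124, at most 0.0366 without any 1 tumor). Bche, butyrylcholinesterase, had 34.5, 30.2, 32.1 and 34.8 CPM, against 39.5 to 86.7 CPM (-0.72, standard error 0.161, adjusted p = 0.0268). The 4 tumors did not overlap with the others for any of these 3 genes.

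Enpp1, the enzyme that breaks down the STING ligand cGAMP, had 117.4, 101.8, 137.5 and 118.7 CPM, against 133.2 to 213.9 CPM (log2 fold change -0.51, standard error 0.0979, adjusted p = 0.0130). Only tumor 13 reached into the range of the others. Abcg2, an efflux transporter of the mammary epithelium, had 115.3, 99.7, 105.4 and 108.3 CPM, against 109.8 to 198.8 CPM (-0.57, standard error 0.138, adjusted p = 0.0416). Itgb8, an integrin subunit that activates TGF-beta, had 22.2, 21.4, 30.5 and 33.6 CPM, against 26.4 to 45.0 CPM (-0.56, standard error 0.122, adjusted p = 0.0253). Steap2, a metalloreductase, had 2.16, 1.48, 2.68 and 2.54 CPM, against 2.73 to 4.42 CPM (-0.73, standard error 0.146, adjusted p = 0.0176).

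The other listed pathways had few or no calls. Of 14 p53 targets 11 were above 0, with a median of 0.30, where 44.2% of all genes on other chromosomes were above 0, and 1 passed (0.409% of those genes were called higher), Gtse1, a mitotic gene that also binds p53. Gtse1 had 19.9, 25.4, 15.8 and 26.2 CPM, against 9.94 to 17.5 CPM (log2 fold change 0.60, standard error 0.123, adjusted p = 0.0196). Cdkn1a, the cell cycle inhibitor p21, was 71.0 and 68.9 CPM in tumors 1 and 13 but 238.0 and 159.1 CPM in tumors 4 and 17, against 31.7 to 110.2 CPM (0.96, adjusted p = 0.0864). Tumors 4 and 17 were thus the highest of the 20 in this gene, whereas tumors 1 and 13 led in the interferon-stimulated genes. Hypoxia and glycolysis genes of other chromosomes had a median of 0.22 (13 of 14 above 0, 0 called), heat shock and unfolded protein genes 0.08 (14 of 19 above 0, 0 called) and ErbB receptors and ligands -0.15 (4 of 11 above 0, 0 called). The endogenous receptor gene Erbb2 had 176.0, 208.1, 210.7 and 215.3 CPM, against 155.2 to 240.6 CPM (log2 fold change 0.06, adjusted p = 0.856).

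Markers of other cells were examined because a tumor piece holds them in varying amounts. None of the marker lists had a gene past the threshold, where 0.409% of all genes on other chromosomes were called higher and 0.147% lower. Adipocyte markers (Adipoq, Fabp4 and 4 others) were all below 0, with a median log2 fold change of -1.43, and their summed level was 7.80 to 27.4 CPM in the 4 tumors and 6.54 to 69.0 CPM (median 33.2) in the other 16. Muscle markers were also all below 0, with a median of -1.92. Their summed level was 73.1, 2.27, 2.40 and 51.5 CPM in tumors 1, 4, 13 and 17 and 1.21 to 803.4 CPM in the others, where the median was 3.80 CPM, so that tumors 1 and 17 were above that median. T cell markers had a median of -0.75 at a summed level of 2.87 to 5.71 CPM, within the range of the others (3.13 to 7.83 CPM) except for the lowest, tumor 17.

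Leukocyte markers summed to 516.0, 287.5, 417.7 and 678.9 CPM in tumors 1, 4, 13 and 17, against 348.0 to 553.1 CPM in the others, with a median log2 fold change of 0.10. Tumor 17 was the highest of the 20 in these markers and tumor 4 the lowest. Macrophage markers had a median of 0.10 and B cell markers of 0.39 (2 of 4 passed the filter, at a sum of 0.484 to 1.03 CPM), neutrophil markers of -0.09, fibroblast markers of -0.05, endothelial markers of -0.09, luminal markers of -0.12 and nuclear RNA of 0.10. Basal markers had -0.36, but 0.00161 with DESeq2. Milk protein genes had -0.64, with summed levels of 8267 to 10965 CPM, against 6477 to 13748 CPM. The luminal markers Krt8, Krt18 and their companions were present at a sum of 3071 to 4091 CPM, against 2702 to 4195 CPM. The part of these cell types in the results was not tested.

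Among the other chromosomes, none differed past an adjusted p of 0.05 when their dosage was taken relative to autosomes other than Chr2 (two-sided exact permutation test over the 4845 ways to choose 4 of 20 tumors, Benjamini-Hochberg over 19 chromosomes). The smallest adjusted p was 0.106, and 7 of 19 had an unadjusted p under 0.05. The differences ran from -0.0703 for Chr4 to 0.0455 for Chr17, next to 0.195 for Chr2. With Chr2 left in the base, as in the rule for Chr2 dosage, the values of all others shift down in the 4 tumors, and 8 chromosomes then passed. Chromosomes with higher GC content had the higher differences (Pearson's r = 0.746 across 19 chromosomes, which share their libraries), and after the trend on GC content and coding length was removed r was 0.380 and 0 chromosomes had an unadjusted p under 0.05.

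**Figure D5:**
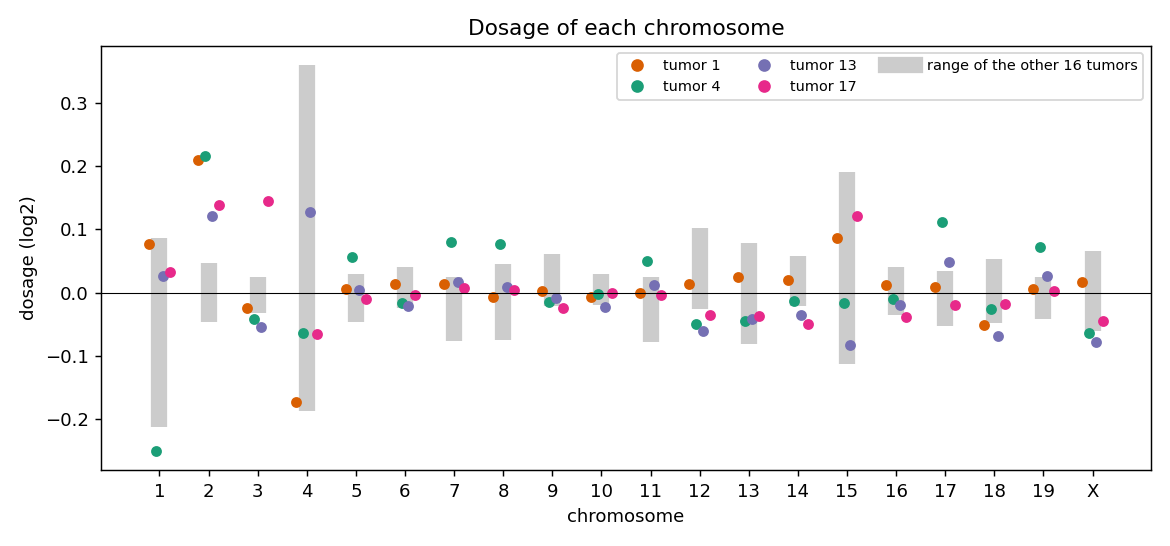
Dosage (log2, vertical axis) of each chromosome (horizontal axis) in the 4 selected tumors (colored points) and the range of the other 16 (grey bars). Chr2 is the 1 chromosome on which all 4 tumors lie above the bar; tumor 4 lies lowest on Chr1, tumor 17 highest on Chr3, and the 4 tumors spread over Chr4 and Chr15.

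The 4 tumors carried different profiles elsewhere. Tumor 4 had a Chr1 dosage of -0.251, below the lowest of the other 16 (-0.213), where tumors 1, 13 and 17 had 0.0772, 0.0267 and 0.0323. Tumor 17 had a Chr3 dosage of 0.145, against -0.0326 to 0.0241 in the other 16, while tumors 1, 4 and 13 had -0.0246, -0.0425 and -0.0544. On Chr4 the values were -0.173, -0.0647, 0.128 and -0.0649 in tumors 1, 4, 13 and 17, within the range of the others (-0.188 to 0.360). On Chr15 tumors 17 and 1 had 0.121 and 0.0869 and tumor 13 had -0.0825. No chromosome other than Chr2 set all 4 tumors apart on the same side.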

How the data were processed

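RNA of 20 mouse breast tumors was sequenced as paired reads from a poly(A) kit. Reads were aligned by the authors to mm10 with TopHat2 2.0.12, and the submitters' processing notes name featureCounts 1.4.4. The authors deposited unnormalized counts for 43346 genes, 1 column per tumor. The strand setting and annotation are not given in the sources used here, so overlapping, antisense and near-identical genes are uncertain.

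CPM and Chr2 dosage were derived from these counts (Python 3.11.15 with scipy 1.17.1, pandas 2.3.3 and numpy 2.4.6). The members, gene lists and tests were chosen with earlier results of these data known. The 4 tumors were compared with the other 16 by the quasi-likelihood test of edgeR 4.0.16 in R 4.3.3, after filterByExpr and TMM scaling. The test was two-sided, with Benjamini-Hochberg adjustment over all genes, those of Chr2 included, at 0.05. DESeq2 1.42.0 was an alternative. CPM printed for single genes are TMM-scaled.

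Named genes on Chr2 were up to 6 per list with the largest log2 fold change in either direction, and the 10 highest and 5 lowest whose mean log2 CPM reached 3. On other chromosomes they were the 10 largest rises and falls past the threshold whose mean log2 CPM reached 1. Others were chosen after their values were seen. Knl1 and Adgre1 were found under older symbols.

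GC content was matched for 99.4% of the genes used, and its trend was fitted per tumor. Total counts ran from 38765682 to 65465755, and each tumor is from another mouse. In data simulated for 4 against 16 tumors (19944 genes), the test found 139 of 200 planted changes of size 1 on the log2 scale, with 4 false calls. A simulated gain of Chr2 lowered the other chromosomes through the base of the dosage, so Chr2 was left out of their base. The same number follows Lo and Hi in 9 pairs of names, and correlations of these pairs ran from -0.350 to 0.281, so that the numbers were not taken to pair the tumors. Alternatives changed 1 choice at a time. Leaving out each of the 16 other tumors, Lo tumors alone, the base with Chr2 and the GC and length trend were added after the data were seen.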

Additional observations from a re-analysis of the deposited data

Results flagged for a closer look

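In the 4 high Chr2 dosage tumors, 56 values were checked for a tumor far from the other 3 (its gap to the nearest being most of the range of the 4), and 6 were flagged, where chance flags about 1 in 20. Tumor 4 stood apart in its Chr1 dosage (-0.251), its Chr7 dosage (0.0804), its expression of RP23-131N18.1 (3.42 CPM, where the others had 16.5 to 18.6 CPM) and its Chr2 profile, in which expression beyond 60 Mb exceeded that before it by 0.289. Tumor 17 stood apart in its Chr3 dosage (0.145). Tumor 1 stood apart in its Chr13 dosage (0.0254), where the others lay between -0.0453 and -0.0370.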

How the results depend on the processing

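The number of genes of other chromosomes past the threshold, 102, was 296 with DESeq2, 51 with the 3 and 69 with the 5 highest tumors, 164 with Chr2 dosage as a number, 170 with Chr4 and 92 with Chr1 dosage as a term. It was 114 with TMM factors from genes outside Chr2, 90 without a filter, 0 with the label as a term and 1 among Lo tumors alone. With the number in the name as a replicate block it was 0 (790 genes at an unadjusted p under 0.05, where the 20 tumors fill 11 numbers). Leaving out 1 tumor at a time gave 22 to 146 genes. DESeq2 split its calls into 139 higher and 157 lower, against 75 and 27, and 98 of the 102 genes were among them. The cause of these shifts was not tested. The 20 named genes of other chromosomes kept their direction in every alternative listed here, and stayed past the threshold in 442 comparisons with an alternative and lost it in 178.

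The Chr2 dosage difference of 0.195 ran from 0.175 to 0.205 over other filters, scalings, the mean and the GC and length trend, and from 0.180 to 0.212 without 1 of the 4 tumors. It was 0.0960 for genes of 1 to 5 CPM, where the pseudocount weighs more. Other chromosomes past the threshold numbered 0, and 8 with Chr2 in the base (Chr6, Chr9, Chr10, Chr12, Chr14, Chr16, Chr18 and ChrX, smallest adjusted p = 0.0157, exact permutation test), and 0 to 2 without 1 of the 4 tumors: ChrX without tumor 1, and Chr3 and Chr18 without tumor 17. The Chr3 difference, 0.00651, ran from -0.0399 without tumor 17 to 0.0266 without tumor 13. Among same-number pairs, as a replicate block, the differences of 4 pairs ran from -0.0691 to 0.0428, and the smallest p these allow is 0.125 (exact permutation of signs). No Hi tumor is among the 4, so no comparison within Hi can be made.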
